A study of Mus musculus with 8 samples.

Results

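The 8 genes described here take up, convert or make glutamate and GABA: the glutamate transporters Slc1a1, Slc1a2 and Slc1a3, the GABA transporters Slc6a11 and Slc6a13, glutamine synthetase (Glul), and the GABA-making enzymes Gad1 and Gad2. They were chosen by name, as the rows with these symbols in the count tables, with earlier results of these data known. All 8 were present among 32285 genes. Nuclei came from frozen striatum of 32 mice aged 12 weeks, 4 of each of 8 inbred strains. Of these, WSB/EiJ, PWK/PhJ and CAST/EiJ are wild-derived, and NZO/HlLtJ, NOD/ShiLtJ, C57BL/6, A/J and 129S1/SvImJ are classical laboratory strains. The mice carried no stated engineered allele and no treatment, and the nuclei table and the design text name different substrains of C57BL/6, so the substrain is left unnamed. Each of 4 batches pooled the nuclei of 1 mouse per strain, with 4 males and 4 females in a batch, and a nucleus was assigned to its mouse by the authors from the genotype of its reads. The sex of each mouse was not used, since the labels do not tie it to a strain.

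Glutamate released at synapses is cleared mainly by astrocytes, through GLT-1 (Slc1a2) and GLAST (Slc1a3), while EAAC1 (Slc1a1) is the main transporter of neurons. Astrocytes convert glutamate to glutamine with glutamine synthetase and return it to neurons. GABA is the transmitter of the striatal projection neurons, which express either the Drd1 or the Drd2 dopamine receptor and make GABA from glutamate with GAD67 (Gad1) and GAD65 (Gad2). GAT-3 (Slc6a11) is an astrocyte GABA transporter, and GAT-2 (Slc6a13) is known from the meninges.

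The authors' table kept 55672 nuclei in 18 named clusters, with a median of 4329 UMIs (counted molecules) per nucleus and 944 to 4416 nuclei per mouse. Batch 3 was the shallowest, with a median of 3232 UMIs against 4593 to 4931 in the other batches. Summing each mouse's nuclei within a cluster gave 1 library, and libraries of Drd1+ neurons held 1710451 to 9416806 counts, those of oligodendrocytes 165465 to 1883033, those of astrocytes 38252 to 1085998 and those of macrophages 27325 to 365425. Astrocyte markers were highest in the cluster named astrocyte (5 of 5 genes), and likewise oligodendrocyte (5 of 5), macrophage and microglia (5 of 5), endothelium (4 of 4) and fibroblast markers (4 of 4) in their clusters. Indirect pathway markers peaked in the Drd2+ cluster (4 of 4), and of the direct pathway markers 2 of 4 peaked in the Drd1+ cluster. Oligodendrocyte markers were counted in every cluster. In the astrocytes of the 8 strains these 5 markers summed to 3816 to 4411 counts per 1000000 counts (CPM), and the 5 astrocyte markers to 2357 to 3111 CPM. With all mice pooled, 1 oligodendrocyte marker gave 2926 of 4008 CPM in astrocytes and the lowest 27.3 CPM. The origin of this RNA was not tested. Of the barcode sequences, 1517 occurred in more than 1 batch, and nuclei were kept apart by batch.

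The genes lie on 5 chromosomes, with coordinates from RefSeq on GRCm38.p6. Gad1 (chr2:70561303-70602014) and Gad2 (chr2:22621015-22693877) share chromosome 2 with Slc1a2 (chr2:102658239-102790784), and Slc6a11 (chr6:114131241-114249886) and Slc6a13 (chr6:121300288-121337721) lie on chromosome 6. Slc1a1 is at chr19:28835135-28913960, Slc1a3 at chr15:8634124-8710807 and Glul at chr1:153899929-153909723. The 250 bases before a transcript start of the RefSeq promoter table are printed for the 4 genes whose strain differences are described at most length below, 5′ to 3′ on the gene's strand. These starts need not be the gene's outer end: that of Gad1 lies inside the gene span given above, as do those of Gad2 and Slc1a2. The windows are shown with the core promoter motif TATAAA and the Sp1-type motif GGGCGG in capitals wherever they occur on either strand. The TATAAA and GGGCGG matches share no letters.
Gad1, chr2:70561879-70562128, plus strand: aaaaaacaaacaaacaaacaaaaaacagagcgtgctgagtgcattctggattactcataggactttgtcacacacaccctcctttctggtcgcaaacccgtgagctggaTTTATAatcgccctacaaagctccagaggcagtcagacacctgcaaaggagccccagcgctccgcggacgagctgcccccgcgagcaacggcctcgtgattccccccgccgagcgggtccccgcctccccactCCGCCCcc
Slc1a3, chr15:8710808-8711057, minus strand: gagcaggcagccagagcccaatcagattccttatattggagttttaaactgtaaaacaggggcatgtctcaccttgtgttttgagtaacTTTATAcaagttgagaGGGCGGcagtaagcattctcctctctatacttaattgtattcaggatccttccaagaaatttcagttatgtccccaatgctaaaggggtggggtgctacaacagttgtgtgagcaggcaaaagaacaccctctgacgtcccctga
Slc1a1, chr19:28834885-28835134, plus strand: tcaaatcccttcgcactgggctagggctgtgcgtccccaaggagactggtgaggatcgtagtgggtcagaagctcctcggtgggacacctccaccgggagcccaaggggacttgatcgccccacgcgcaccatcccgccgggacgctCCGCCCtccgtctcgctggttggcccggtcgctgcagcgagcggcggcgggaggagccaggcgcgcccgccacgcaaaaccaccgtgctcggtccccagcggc
Glul, chr1:153899679-153899928, plus strand: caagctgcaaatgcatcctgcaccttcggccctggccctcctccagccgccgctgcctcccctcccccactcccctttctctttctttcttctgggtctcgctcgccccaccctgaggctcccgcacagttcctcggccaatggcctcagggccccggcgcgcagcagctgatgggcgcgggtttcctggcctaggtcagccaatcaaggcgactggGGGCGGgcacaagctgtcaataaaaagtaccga

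The window of Gad1 holds 17 CG dinucleotides with 1 match of each motif, and that of Slc1a3 holds 2 CG with 1 match of each. The TATAAA matches of Gad1 and Slc1a3 read TTTATA on the gene's strand, so TATAAA itself lies on the opposite strand. Whether any match acts in a promoter was not tested. The windows of Slc1a1 (27 CG) and Glul (15 CG) each hold 1 match of the Sp1-type motif and none of the other. Over all 32851 such windows of RefSeq promoters the median was 6 CG, 12.4% held TATAAA and 32.7% held GGGCGG. The palindrome CACGTG, searched in the same way, was in none of these 4 windows and in 6.02% of all windows. The 250 bases together with the first 50 of the transcript overlapped an accessible region of the authors' deposited peak index at Slc1a1, Glul and Gad2, and the windows listed for Gad1, Slc1a2, Slc1a3, Slc6a11 and Slc6a13 overlapped none, against 53.1% of all RefSeq promoters with an overlap. The Slc1a2 window (chr2:102706188-102706487) lies far inside the gene, so the outer start of Slc1a2 was not examined, nor were those of Gad1 and Gad2. The index gives positions pooled over all nuclei, so it does not show in which cell type a region was open.

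Levels by cluster are given as CPM of each library, as mean ± SD over mice with at least 10 nuclei of the cluster. They describe clusters that were drawn from these same counts, so differences between clusters carry no test. Counts were not divided by gene length, so levels are compared between clusters and strains, not between genes.

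Slc1a2 was far higher in astrocytes than anywhere else. It averaged 6327 ± 878 CPM in astrocytes (SD, n = 32; 4706 to 8085), and 99.2% of astrocyte nuclei held at least 1 Slc1a2 UMI. The next clusters were an unnamed cluster called Unknown by the authors (873 ± 347, n = 26) and Slc17a7+ neurons (751 ± 104, n = 20), both below every astrocyte library. Endothelium, macrophages, ependyma and oligodendrocytes followed at 481 ± 303, 441 ± 195, 431 ± 158 and 396 ± 141 CPM with overlapping ranges, and Drd2+ and Drd1+ neurons were at 146 ± 28.5 and 139 ± 27.8 CPM. In the same mouse astrocytes exceeded oligodendrocytes in 32 of 32 mice, by a mean of 17.0-fold (the mean of the log2 ratios over mice, turned back into a fold, as for the other pairs of clusters given here). After thinning each nucleus to 1000 UMIs, 97.6% of astrocytes, 29.5% of oligodendrocytes and 12.1% of Drd1+ neurons held a Slc1a2 UMI. How much of the lower shares came from RNA free in the suspension was not tested. In oligodendrocytes the level differed between batches: the 8 mice of batch 3 had 166 to 257 CPM and the 8 of batch 2 had 550 to 651 CPM (on the scale used for strains, defined below). These batch ranges do not overlap, and the share of all genes that separate these batches is not given here. Batch was a term of every strain test.

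Slc1a3, the second astrocyte glutamate transporter, averaged 2035 ± 381 CPM in astrocytes (n = 32; 1445 to 3242). Fibroblasts, with 132 nuclei spread too thinly for most mice, had 1399 CPM when pooled (95% Poisson interval 1257 to 1552, counting error only). Macrophages had a mean of 806 ± 1361 CPM but a median of 304 CPM, and the range of 103 to 4761 CPM split by strain. Without the 4 129S1/SvImJ mice the macrophage mean was 309 ± 117 CPM (n = 28; 103 to 604). Oligodendrocytes had 212 ± 60 CPM and Drd1+ neurons 15.1 ± 3.6 CPM. Within mice, astrocytes exceeded macrophages in 28 of 32 mice, and the 4 exceptions were the 129S1/SvImJ mice.

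Slc1a1, the neuronal transporter, was spread over neurons and some non-neuronal clusters. It was highest in the cluster named Polydendrocyte/Oligodendrocyte (323 ± 148 CPM, n = 27), then in endothelium (175 ± 66 CPM), Drd2+ neurons (115 ± 17 CPM) and Drd1+ neurons (84.3 ± 12.6 CPM). Drd2+ exceeded Drd1+ neurons in 32 of 32 mice, by a mean of 1.37-fold, and Drd1+ neurons exceeded the second Drd1+ cluster in 32 of 32 mice, by 1.73-fold. Oligodendrocytes (18.2 ± 16.6), astrocytes (11 ± 6.5) and macrophages (9.2 CPM) were lowest among the large clusters.

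Of the GABA transporters, Slc6a11 was an astrocyte gene at 231 ± 54.5 CPM (n = 32; 147 to 379), with no library of another cluster reaching that range. The next level was 28.8 CPM in the Unknown cluster, and Drd1+ and Drd2+ neurons had 3.54 and 3.33 CPM. A Slc6a11 UMI was seen in 36.0% of astrocyte nuclei. Slc6a13 was nearly absent from the parenchymal clusters. It had 222 counts in all, of which 128 were in fibroblasts, where pooled nuclei had 504 CPM (95% Poisson interval 421 to 600) and 50% of nuclei held a UMI. Astrocytes held 0 Slc6a13 counts, which allows at most 0.33 CPM. In fibroblasts pooled by strain the level was lowest in PWK/PhJ, at 113 CPM (3 counts; 23.2 to 329), and highest in 129S1/SvImJ, at 814 CPM (13 counts; 433 to 1392), and the gene was too rare for any strain test.

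Glul was highest in astrocytes (625 ± 151 CPM; 421 to 1065), followed by macrophages (438 ± 163), oligodendrocytes (422 ± 88) and endothelium (397 ± 178), whose ranges overlap. Astrocytes exceeded oligodendrocytes in 32 of 32 mice, by a mean of 1.48-fold, and Drd1+ neurons by 8.80-fold.

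Gad1 and Gad2 followed each other over the clusters. The highest levels of both were in the Unknown cluster, with 329 ± 87 CPM of Gad1 and 438 ± 131 CPM of Gad2 (n = 26), which also had the highest level of all 3 neuroblast markers, and then in Nxph1+ interneurons (242 ± 58 and 246 ± 49 CPM). Gad1 averaged 139 ± 33 CPM in Drd2+ and 108 ± 25 CPM in Drd1+ neurons, higher in the Drd2+ neurons of 32 of 32 mice by a mean of 1.29-fold. Gad2 was alike in both, at 166 ± 23 and 170 ± 23 CPM, and was higher in Drd2+ neurons in 14 of 32 mice. Both were higher in the second Drd1+ cluster, which carries the eccentric projection neuron markers (3 of 3 highest there), than in the first: Gad1 in 32 of 32 mice by 1.75-fold and Gad2 in 31 of 32 by 1.41-fold. Among clusters with non-neuronal names Gad1 had 81.4 ± 42.9 CPM in mural cells (n = 20), a range that overlapped that of Drd1+ neurons, 69.3 ± 36.6 CPM in the Polydendrocyte/Oligodendrocyte cluster and 58.9 ± 34.9 CPM in endothelium. The 4 markers of any projection neuron summed to 3350, 1355 and 1687 CPM in these 3 clusters, against 4418 CPM in Drd1+ neurons, 435 CPM in astrocytes and 319 CPM in oligodendrocytes, and their part in the levels of Gad1 there, and of Slc1a1 above, was not tested. Gad1 had 41.3 ± 13.8 CPM in astrocytes and 30.3 ± 12.3 CPM in oligodendrocytes, where 5.08% of nuclei held a UMI, and 7.73 ± 6.89 CPM in Slc17a7+ neurons.

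**Figure D1:**
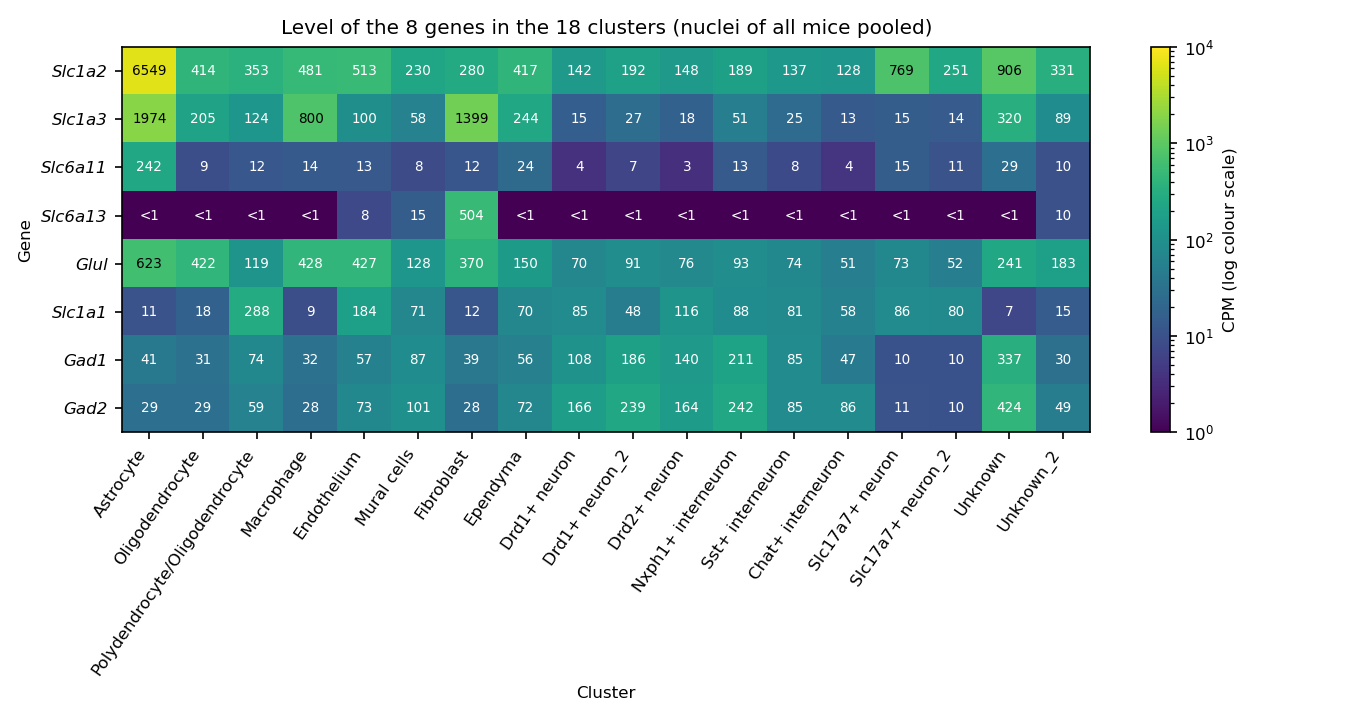
Level of each of the 8 genes (rows) in each of the 18 clusters (columns) as CPM of all nuclei pooled, on a log colour scale with the value printed in each cell. Slc1a2, Slc6a11 and Glul peak in astrocytes, Slc6a13 in fibroblasts, and Gad1 and Gad2 in the Unknown cluster and the GABA neurons.

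Strains were compared in the 9 clusters with at least 3 mice of every strain, by edgeR's quasi-likelihood test with batch as a term and Benjamini-Hochberg adjustment over all tested genes of the cluster. CPM of strains below divide by the tested genes' total after TMM scaling, so they are not on the same scale as the levels above and can be higher or lower. An adjusted p under 0.05 counts as a call. Strain effects were common in these data: the share of all tested genes called by the strain term was 17.3% in the second Drd1+ cluster, 21.5% in astrocytes, 24.8% in macrophages, 34.8% in oligodendrocytes, 55.9% in Drd2+ and 61.7% in Drd1+ neurons. Among the 8 genes it called 1 of 6 tested in the second Drd1+ cluster, 4 of 6 in astrocytes, 3 of 3 in macrophages, 4 of 6 in oligodendrocytes, 3 of 7 in Drd2+ and 5 of 7 in Drd1+ neurons. It called 0 of 6 in Nxph1+ interneurons, 0 of 6 in endothelium and 0 of 4 in the Polydendrocyte/Oligodendrocyte cluster, where it called 1.53%, 3.23% and 1.24% of all genes. The neuronal shares are near the share of all genes. Those of astrocytes, macrophages and oligodendrocytes are higher, but few genes were tested and they were chosen with earlier results of these data known. The counts are therefore not read as a result about these genes as a group, and the size and direction for each gene follow. Contrasts then compared 1 strain with the mean of the other 7. Whether differences between a strain's sequence and the reference build changed its counts was not tested.

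**Figure D2:**
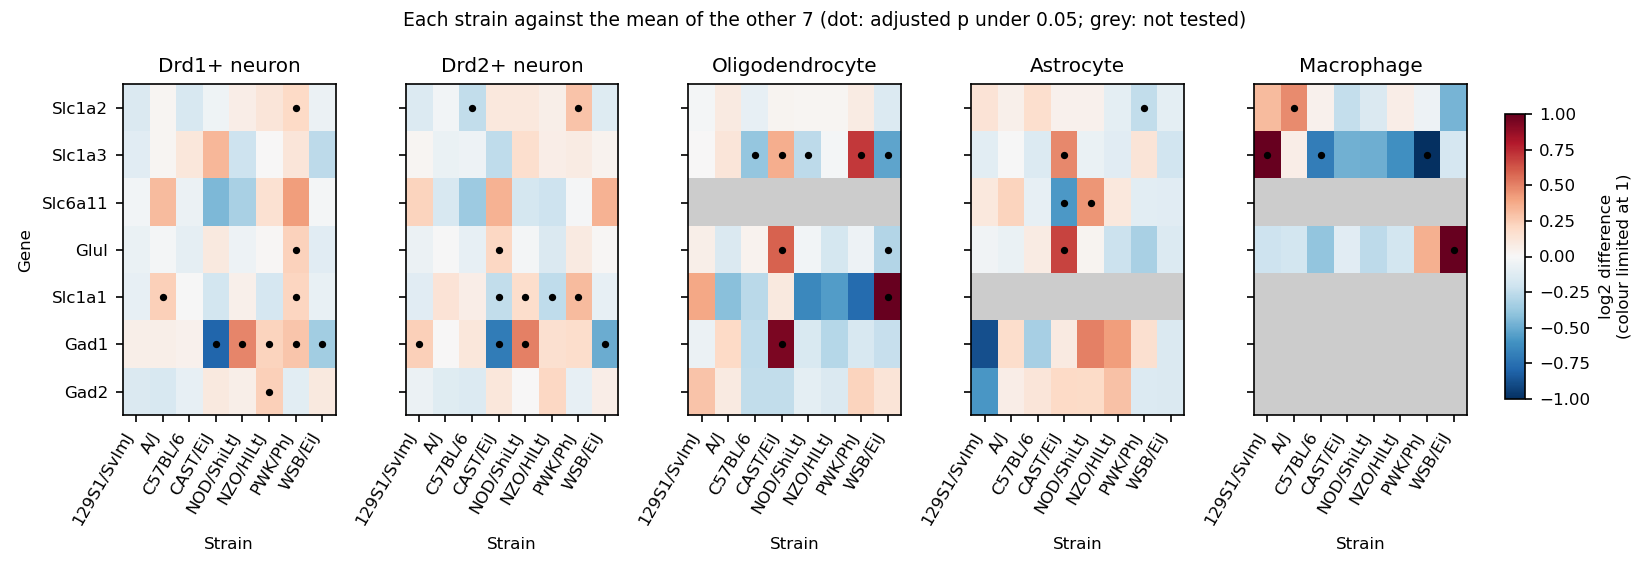
Log2 difference of each strain from the mean of the other 7 (colour, limited at 1 in either direction) for each gene (rows) and strain (columns) in 5 clusters, with a dot where the adjusted p is under 0.05 and grey where the gene was not tested. CAST/EiJ is lower for Gad1 in both neuron clusters and higher for Gad1 and Glul in oligodendrocytes, and 129S1/SvImJ is higher for Slc1a3 in macrophages.

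In astrocytes the level of Slc1a2 differed little between strains. The lowest strain mean was 5714 ± 372 CPM, in PWK/PhJ, and the highest 7402 ± 1184 CPM, in C57BL/6, a 1.30-fold span, and every strain overlapped the others. The strain term did not call it (edgeR adjusted p = 0.0612). PWK/PhJ, with 5675, 6048, 5207 and 5926 CPM in batches 1 to 4, was lower than the mean of the others by a log2 difference of -0.25 ± 0.080 (SE; edgeR adjusted p = 0.0324, where 4.17% of genes were called lower), a call lost without the batch term (0.13) and without batch 1, 2 or 4 (0.13 to 0.26). Batch 3 gave the lowest astrocyte level in 7 of 8 strains, the exception being WSB/EiJ, and the lowest library was CAST/EiJ in batch 3 at 4260 CPM.

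Slc1a3 in astrocytes was highest in CAST/EiJ. The 4 CAST/EiJ mice had 2905, 2584, 2934 and 2909 CPM, a mean of 2833 ± 167 against 2043 ± 262 in the other 28 mice. Of the other strains, 1 PWK/PhJ mouse, at 2905 CPM, lay within the CAST/EiJ range. The difference was 0.48 ± 0.082 on the log2 scale (edgeR adjusted p = 4.57e-06, where 4.75% of all astrocyte genes were called higher in CAST/EiJ). The strain term called Slc1a3 in astrocytes under all 9 alternatives tried (edgeR adjusted p = 0.000104).

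Glul was called higher in the same strain. CAST/EiJ astrocytes had 997, 1145, 852 and 863 CPM, a mean of 964 ± 137 against 615 ± 100 CPM, with 1 other library, of WSB/EiJ, at 890 CPM inside the CAST/EiJ range. The log2 difference was 0.68 ± 0.10 (edgeR adjusted p = 4.72e-07). The GABA transporter Slc6a11 went the other way: CAST/EiJ had 181, 158, 166 and 189 CPM (173 ± 14 against 254 ± 56.5 CPM), a log2 difference of -0.58 ± 0.14 (edgeR adjusted p = 0.0022, where 4.89% of genes were called lower). NOD/ShiLtJ was at the high end with 309, 398, 263 and 288 CPM and a log2 difference of 0.44 (edgeR adjusted p = 0.0116, where 2.75% of genes were called higher). Both Slc6a11 calls, and that of the strain term, were lost without batch 2 (adjusted p 0.127, 0.291 and 0.34). In the same CAST/EiJ astrocytes the 5 astrocyte markers summed to 2571 CPM against 2650 CPM in the other mice, and the oligodendrocyte markers to 3912 against 4127 CPM. Gad1 in astrocytes passed the strain term (edgeR adjusted p = 0.0481) but in only 3 of 9 alternatives, and none of the 8 strains was called against the others.

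**Figure D3:**
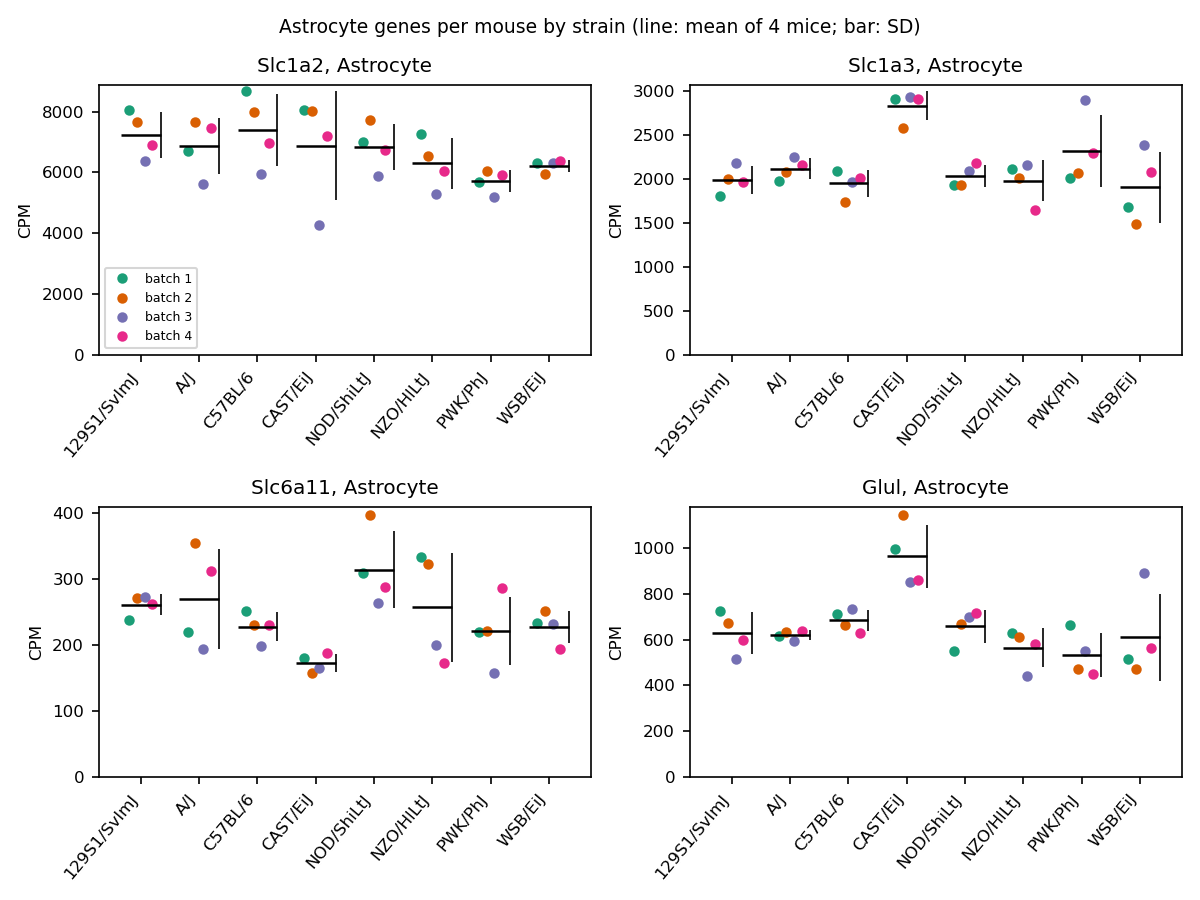
CPM per mouse (points, coloured by batch) of Slc1a2, Slc1a3, Slc6a11 and Glul in astrocytes for the 8 strains, with the mean of 4 mice (line) and SD (bar) on axes from 0. CAST/EiJ mice are at 2584 to 2934 CPM for Slc1a3 and 852 to 1145 CPM for Glul, while batch 3 is low for Slc1a2 in most strains.

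Among the strain contrasts computed for these genes, the largest was Slc1a3 in macrophages, a contrast added after the data were seen. The 4 129S1/SvImJ mice had 3892, 5862, 5674 and 5759 CPM, a mean of 5297 ± 940, and the other 28 mice had 128 to 746 CPM, with a mean of 382 ± 148. The ranges are far apart, with a 13.9-fold ratio of means. The log2 difference was 3.85 ± 0.12 (edgeR adjusted p = 8.66e-24, where 3.53% of genes were called higher in 129S1/SvImJ). All 4 mice lay above all others, as did 0.156% of the tested macrophage genes in this strain. Of 320 129S1/SvImJ macrophage nuclei 92.2% held a Slc1a3 UMI (89.0 to 97.1% by mouse), against 18 to 39.3% in the other strains. After thinning to 1000 UMIs these were 88.3% and 13 to 30.1%, so the difference was as large at equal depth.

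In the same nuclei Slc1a2 and the summed astrocyte markers of 129S1/SvImJ lay within the range of the other strains. Slc1a2 was seen in 42.5% of the 129S1/SvImJ nuclei, near the upper end of the 32.3 to 43.1% of the other strains. Its log2 difference from the mean of the other strains was 0.31 ± 0.14, not called (edgeR adjusted p = 0.229). The 5 astrocyte markers summed to 171 CPM (97.0 to 273 by mouse) in 129S1/SvImJ against 173 CPM (41.3 to 339) in the other mice. Slc6a11, not tested in macrophages, had its highest strain mean there, at 23.2 ± 21.2 CPM from 9 counts, against 2.96 to 22.0 CPM in the other strains, and its 8.89 to 54.6 CPM by mouse overlapped the 0 to 48.0 CPM of the other mice. Macrophage markers summed to 10170 CPM against 11294 CPM, and fibroblast markers to 2.73 against 2.40 CPM. In astrocytes, oligodendrocytes and endothelium Slc1a3 of 129S1/SvImJ lay within the range of the other strains: it was 1989 ± 157 CPM in 129S1/SvImJ astrocytes and 212 ± 24 CPM in oligodendrocytes, neither called against the others, and pooled endothelium had 125 CPM against 28.8 to 129 CPM in the other strains. In the second Drd1+ cluster 129S1/SvImJ had the highest Slc1a3 mean, at 50 ± 32.5 CPM against 25.1 ± 17.0 CPM, with overlapping mice, and the strain term did not call it (edgeR adjusted p = 0.41). Among the remaining strains PWK/PhJ was lowest in macrophages with 164, 244, 345 and 128 CPM, a log2 difference of -1.48 ± 0.22 (edgeR adjusted p = 2.34e-06, where 6.35% of genes were called lower), in a comparison whose other 7 strains include 129S1/SvImJ.

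Glul in macrophages was highest in WSB/EiJ. These mice had 975, 1042, 1054 and 753 CPM (956 ± 140), against 482 ± 127 CPM and a highest value of 798 CPM, in PWK/PhJ, among the others. The log2 difference was 1.00 ± 0.13 (edgeR adjusted p = 1.84e-09, where 4.2% of genes were called higher), and 61.3% of WSB/EiJ macrophage nuclei held a Glul UMI against 33.1 to 47.0% in the other strains. Summed macrophage markers were also higher in the WSB/EiJ libraries, at 13585 against 10807 CPM, and their part in the result was not tested. Oligodendrocyte markers, from a cell type that also expresses Glul, were 5885 against 5731 CPM there. Slc1a2 in macrophages passed the strain term (edgeR adjusted p = 0.00638) but not without the batch term (0.91) or without batch 2 or 3 (0.099 and 0.064).

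In oligodendrocytes the strain term called 4 of the 6 genes tested, where it called 34.8% of all genes. Slc1a1 was low in 7 strains, whose means ran from 9.60 to 18.9 CPM, and higher in WSB/EiJ, with 44.7, 69.1, 51.0 and 66.6 CPM. The WSB/EiJ mean of 57.8 ± 11.8 CPM rests on 132 counts and compares with 13 ± 6.69 CPM and a highest value of 26.1 CPM in the other 28 mice. All 4 mice lay above all others, as did 0.22% of the tested genes in this strain. The log2 difference was 2.18 ± 0.21 (edgeR adjusted p = 3.57e-14, where 5.86% of genes were called higher). A Slc1a1 UMI was seen in 7.66% of WSB/EiJ oligodendrocyte nuclei against 1.44 to 2.95% in the other strains, at median depths of 1586 and 1535 to 1697 UMIs. Markers of oligodendrocyte precursors, where Slc1a1 was highest, summed to 9.51 CPM in the WSB/EiJ libraries against 14.0 CPM in the others, and endothelial markers were at 40.9 against 39.2 CPM.

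Slc1a3 in oligodendrocytes had its lowest strain mean in WSB/EiJ (153 ± 16.5 CPM) and its highest in PWK/PhJ (331 ± 45.8 CPM). The PWK/PhJ mice had 275, 318, 383 and 348 CPM against 201 ± 42.5 CPM in the others, a log2 difference of 0.71 ± 0.09 (edgeR adjusted p = 4.46e-10, where 7.39% of genes were called higher). The WSB/EiJ mice had 155, 174, 136 and 145 CPM, lower by a log2 difference of -0.53 (edgeR adjusted p = 2.77e-05, where 4.28% of genes were called lower). CAST/EiJ, at 263 ± 39.1 CPM, was also called higher (0.36, edgeR adjusted p = 0.00226, 0.188 without batch 4) and C57BL/6, at 166 ± 15 CPM, lower (-0.38, edgeR adjusted p = 0.00276, 0.0754 without batch 4, where 2.98% of genes were called lower). The astrocyte markers summed to 125 CPM in PWK/PhJ oligodendrocytes against 128 CPM in the other mice.

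Glul in oligodendrocytes was highest in CAST/EiJ, as in astrocytes. Its mice had 630, 614, 556 and 654 CPM, all above the highest of the others at 514 CPM, a separation seen for 1.37% of tested genes in this strain. The mean was 613 ± 41.4 against 408 ± 60.1 CPM, and the log2 difference was 0.59 ± 0.078 (edgeR adjusted p = 1.11e-09, where 9.45% of genes were called higher). Slc1a2 did not differ detectably between strains in oligodendrocytes, with strain means of 382 to 428 CPM and an edgeR adjusted p of 0.71.

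**Figure D4:**
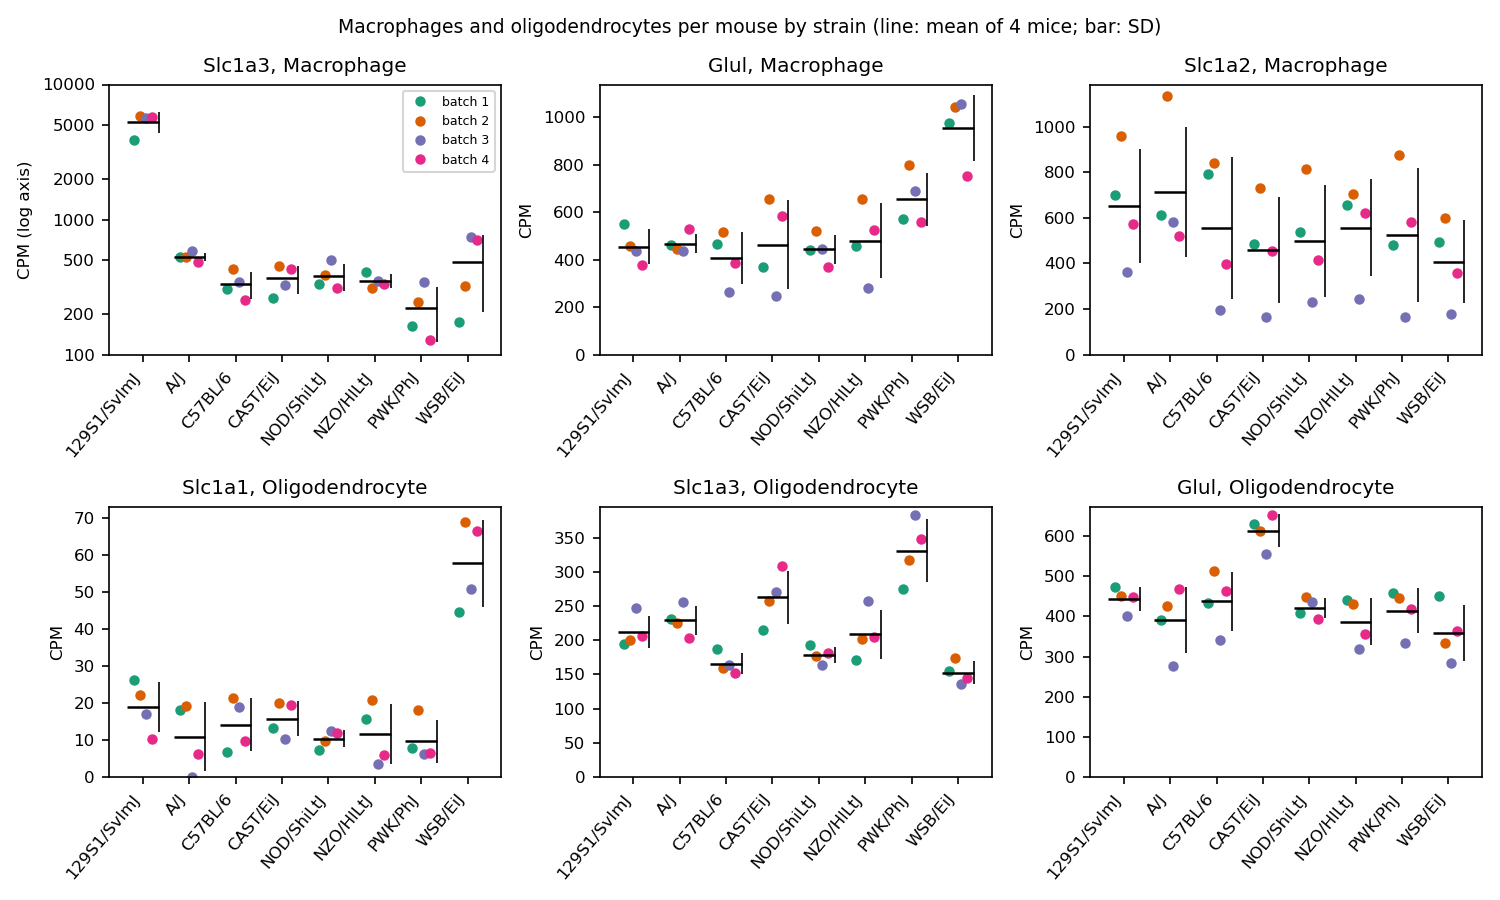
CPM per mouse (points, coloured by batch) in macrophages (top row: Slc1a3 on a log axis, Glul and Slc1a2) and oligodendrocytes (bottom row: Slc1a1, Slc1a3 and Glul) for the 8 strains, with the mean of 4 mice (line) and SD (bar). The 129S1/SvImJ mice lie at 3892 to 5862 CPM for macrophage Slc1a3, and the WSB/EiJ mice at 44.7 to 69.1 CPM for oligodendrocyte Slc1a1, apart from all other mice.

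Gad1 varied more between strains than Gad2 in the projection neurons. In Drd1+ neurons the CAST/EiJ mice had 71.5, 66.0, 56.7 and 66.6 CPM, a mean of 65.2 ± 6.17 against 114 ± 20.7 CPM in the other 28 mice, whose lowest value was 73.2 CPM. The 4 CAST/EiJ mice thus lay below all others, as did 1.41% of the tested genes in this strain. The log2 difference was -0.79 ± 0.081 (edgeR adjusted p = 6.34e-11, where 15.9% of genes were called lower). WSB/EiJ was next lowest with 96.5, 87.9, 73.2 and 84.0 CPM, a log2 difference of -0.35 ± 0.076 (edgeR adjusted p = 0.000778, where 7.3% of genes were called lower). NOD/ShiLtJ was highest with 130, 169, 129 and 139 CPM, a log2 difference of 0.49 (edgeR adjusted p = 1.23e-06, where 9.4% of genes were called higher). PWK/PhJ, at 125 ± 18 CPM, was called higher by 0.28 (edgeR adjusted p = 0.00193, where 17% of genes were called higher).

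The order was the same at both ends in Drd2+ neurons. CAST/EiJ had 86.4, 102, 85.8 and 84.3 CPM there, with a log2 difference of -0.70 ± 0.083 (edgeR adjusted p = 3.02e-09, where 13.3% of genes were called lower), and overlapped WSB/EiJ, which had 115, 102, 96.8 and 90.4 CPM and a difference of -0.50 (edgeR adjusted p = 4.37e-06, where 6.77% were called lower). NOD/ShiLtJ, with 183, 206, 177 and 177 CPM, was higher by 0.51 (edgeR adjusted p = 5.41e-07, where 7.58% were called higher). The strain term for Gad1 held under all 9 alternatives in both clusters (edgeR adjusted p = 1.67e-11 in Drd1+ and 1.5e-11 in Drd2+ neurons). In the second Drd1+ cluster CAST/EiJ also had the lowest Gad1 mean, 132 ± 8.66 CPM against strain means up to 252 CPM in NZO/HlLtJ, but that strain term (edgeR adjusted p = 0.023) was lost without any 1 of the 4 batches. Interneuron markers in the Drd1+ libraries were 40.5 CPM in CAST/EiJ against 39.2 CPM in the others, and the projection neuron markers 4969 against 4308 CPM.

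An annotated antisense transcript, Gad1os, overlaps Gad1, and whether reads were counted by strand is not given in the sources used here, so reads of the pair cannot be told apart with certainty. Gad1os had 9.61 ± 1.6 CPM in CAST/EiJ Drd1+ neurons, the lowest strain mean, and 22.9 CPM in WSB/EiJ, where Gad1 was also low. Counts of Slc1a2 share the same limit with Gm13872, which had 68.5 to 129 CPM in astrocytes by strain.

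Gad2 in Drd1+ neurons had strain means of 154 to 196 CPM, a 1.27-fold span against 2.17-fold for Gad1. NZO/HlLtJ was highest with 234, 204, 181 and 166 CPM, a log2 difference of 0.24 (edgeR adjusted p = 0.0272, where 11% of genes were called higher), lost without batch 1 (0.37) or batch 2 (0.10). In Drd2+ neurons no strain was called for Gad2. In CAST/EiJ, where Gad1 was lowest, Gad2 was 178 ± 22.5 CPM in Drd2+ and 179 ± 24.6 CPM in Drd1+ neurons, within the range of the other strains.

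The ratio of Gad2 to Gad1 within a mouse does not depend on library scaling. Its mean log2 in Drd1+ neurons was 1.45 ± 0.14 in CAST/EiJ and 1.08 ± 0.37 in WSB/EiJ, and 0.32 to 0.68 in the other 6 strains. Strains differed in this ratio in Drd1+ neurons (permutation test of F over the 8 strains, within batches, adjusted p = 0.000165 over 3 ratios tested) and in Drd2+ neurons (permutation adjusted p = 0.00033), where CAST/EiJ was at 0.98 and WSB/EiJ at 0.77. The third ratio, Slc1a2 to Slc1a3 in astrocytes, also differed (permutation adjusted p = 9e-05), with means of 1.31 ± 0.32 in PWK/PhJ, 1.24 ± 0.49 in CAST/EiJ and 1.67 to 1.91 elsewhere. That ratio moved with batch as well, at 1.25 in batch 3 against 1.65 to 1.86 in the others.

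In oligodendrocytes the CAST/EiJ order of Gad1 was the reverse of that in neurons. The CAST/EiJ mice had 56.5, 61.8, 52.0 and 49.5 CPM, all above the highest other value of 43.7 CPM, as for 1.37% of tested genes in this strain. The mean was 54.9 ± 5.4 against 27.7 ± 9.0 CPM. The log2 difference was 0.94 ± 0.19 on 103 counts (edgeR adjusted p = 6.36e-05, where 9.45% of genes were called higher). A Gad1 UMI was held by 9.13% of CAST/EiJ oligodendrocyte nuclei against 4.01 to 5.57% in the other strains. Gad2 did not move with it, at 22.8 ± 15 CPM, the lowest strain mean. Markers of projection neurons in these libraries summed to 297 CPM in CAST/EiJ against 315 CPM in the others, and interneuron markers to 140 against 133 CPM. In macrophages, where Gad1 was too low for a test, CAST/EiJ had the highest strain mean (78.3 ± 14.2 CPM on 19 counts), and its mice overlapped those of other strains. Other non-neuronal clusters did not share this order. In astrocytes CAST/EiJ was not called (log2 difference 0.09, edgeR adjusted p = 0.892), and NOD/ShiLtJ was highest at 57.3 CPM. The highest strain mean was that of PWK/PhJ in endothelium and of NZO/HlLtJ in the Polydendrocyte/Oligodendrocyte cluster. The strain term for oligodendrocyte Gad1 (edgeR adjusted p = 0.0037) was lost without batch 2 (0.16), while the CAST/EiJ contrast held under all 9 alternatives.

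**Figure D5:**
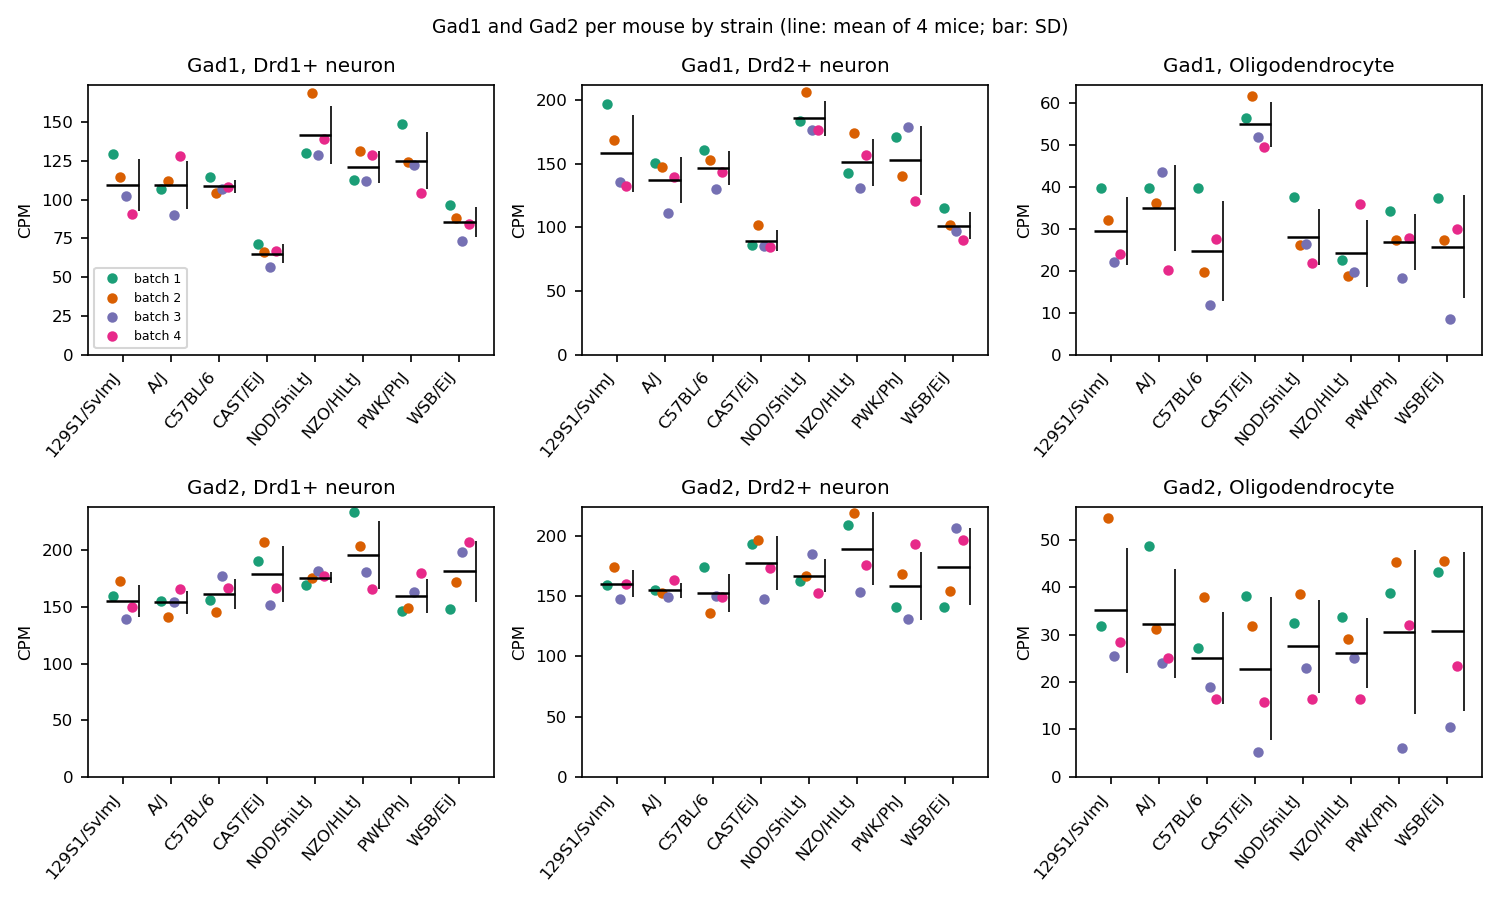
CPM per mouse (points, coloured by batch) of Gad1 (top row) and Gad2 (bottom row) in Drd1+ neurons, Drd2+ neurons and oligodendrocytes for the 8 strains, with the mean of 4 mice (line) and SD (bar) on axes from 0. CAST/EiJ is lowest for Gad1 in both neuron clusters (56.7 to 71.5 CPM in Drd1+ neurons) and highest in oligodendrocytes (49.5 to 61.8 CPM), while Gad2 overlaps across strains.

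Slc1a1 differed between strains in the projection neurons by less than Gad1. In Drd2+ neurons PWK/PhJ had 134, 145, 126 and 154 CPM, higher by a log2 difference of 0.32 (edgeR adjusted p = 4.27e-05, where 15.2% of genes were called higher). CAST/EiJ, with 102, 102, 91.3 and 101 CPM, was lower by -0.25 (edgeR adjusted p = 0.00303), and NZO/HlLtJ, at 98.6 ± 3.84 CPM, was lower by -0.25 (edgeR adjusted p = 0.00294, where 7.72% of genes were called lower). The strain means in Drd1+ neurons were 75.6 to 97.6 CPM, and that strain term (edgeR adjusted p = 0.0172) was lost without batch 2 (0.071) or batch 3 (0.084). Slc1a2 in the same neurons was low and highest in PWK/PhJ, with 169, 173, 144 and 136 CPM in Drd1+ neurons (0.20, edgeR adjusted p = 0.0214) and 172 ± 13.1 CPM in Drd2+ neurons (0.28, edgeR adjusted p = 0.00128). Neither neuronal strain term of Slc1a2 held without the batch term (adjusted p 0.92 and 0.58). The Drd1+ term held in 5 of 9 alternatives and the Drd2+ term in 8 of 9. The PWK/PhJ call held in 6 of 9 for the Drd1+ cluster and in 8 of 9 for the Drd2+ cluster. With all mice pooled, the 5 astrocyte markers summed to 2453 CPM in astrocytes, 45.5 CPM in the Drd1+ cluster and 49.0 CPM in the Drd2+ cluster. The part of astrocyte RNA in the neuronal Slc1a2 level was not tested. Glul in Drd1+ neurons spanned 64.8 to 80.3 CPM by strain, and its strain term (edgeR adjusted p = 0.0449) held in 2 of 9 alternatives.

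The remaining calls were smaller or rested on fewer settings, and each was lost under at least 1 alternative. In Drd1+ neurons these were higher Gad1 in NZO/HlLtJ (log2 difference 0.22), higher Glul in PWK/PhJ (0.23) and higher Slc1a1 in A/J (0.24) and PWK/PhJ (0.22), with edgeR adjusted p from 0.00562 to 0.0402, where 10.6% of genes were called higher in A/J. In Drd2+ neurons they were higher Gad1 in 129S1/SvImJ (0.24), higher Glul in CAST/EiJ (0.21), higher Slc1a1 in NOD/ShiLtJ (0.17) and lower Slc1a2 in C57BL/6 (-0.25), with edgeR adjusted p from 0.0184 to 0.0496, where 6.7% of genes were called higher in 129S1/SvImJ, 14.8% higher in CAST/EiJ and 4.25% lower in C57BL/6. Oligodendrocytes had lower Glul in WSB/EiJ (-0.29, edgeR adjusted p = 0.0102) and lower Slc1a3 in NOD/ShiLtJ (-0.26, edgeR adjusted p = 0.0494, where 3.85% of genes were called lower). Macrophages had higher Slc1a2 in A/J (0.47, edgeR adjusted p = 0.0105, where 3.84% were called higher) and lower Slc1a3 in C57BL/6 (-0.69, edgeR adjusted p = 0.0308, where 1.43% were called lower). The other 7 strains of that last comparison include 129S1/SvImJ, and the C57BL/6 mean of 335 ± 76 CPM lay between the 220 and 531 CPM of PWK/PhJ and A/J, the lowest and highest of the remaining 6 strains.

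Whether a strain difference was itself different between 2 cell types of the same mice was tested by the interaction of strain and cluster. Between Drd1+ and Drd2+ neurons it called 0 of 7 members by edgeR, where it called 4.58% of all genes. This does not show that strain differences are alike in both clusters. Before adjustment 2 members had edgeR values under 0.05, Gad1 with an edgeR adjusted p of 0.199 and Slc1a3 with an adjusted p of 0.268. Between astrocytes and oligodendrocytes, where 10.9% of genes were called, it called Slc1a3 (edgeR adjusted p = 0.00623), Slc1a1 (0.00972) and Gad1 (0.0247) of 7. These 3 calls were lost without the mouse block and without batch 1, and 1 of 3 held without batch 2 or without batch 4. Glul, raised in CAST/EiJ in both of these glial types, was not called (edgeR adjusted p = 0.83).

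Another pair of interactions was added after the data were seen. Between Drd1+ neurons and oligodendrocytes, where 16.9% of genes were called, Slc1a1 (edgeR adjusted p = 4.41e-10), Gad1 (1.49e-07) and Glul (0.0182) were called of 7. The Glul call held in 3 of 8 alternatives and the other 2 in all 8. This test covers all 8 strains at once, and the opposite direction of CAST/EiJ Gad1 in neurons and oligodendrocytes was not tested by itself. Between astrocytes and macrophages, where 8.27% of genes were called, Slc1a3 (edgeR adjusted p = 1.31e-34) and Glul (1.04e-07) were called of 5, and Slc1a2 was not (0.91). Simulated data held 2-fold changes in CAST/EiJ alone, in 1 cluster of a pair, and no separate mouse or batch effect. On them the interaction tests of astrocytes with oligodendrocytes and with macrophages recovered 5.58% and 2.06% of the changed genes. That of Drd1+ with Drd2+ neurons recovered 46.4%. Of the few calls between astrocytes and oligodendrocytes, 15.4% were false, too few calls to set a rate. The simulated data were fitted with the same block on mouse as the data. Their spread between mice was estimated by strain and cluster, without a batch or mouse term. These shares therefore need not hold for the data. A gene not called by these tests is not shown to differ alike in both cell types. The 3 calls between astrocytes and oligodendrocytes are uncertain.

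Of 23 other genes of the glutamate and GABA cycle, the strain term called 4 of 14 tested in astrocytes, 3 of 13 in oligodendrocytes, 1 of 5 in macrophages and 13 of 17 in either projection neuron cluster, to be read against the shares of all genes above. The 3 named next were picked from these 23 after their values were seen, so they are a description and carry no test. Slc17a8, a vesicular glutamate transporter, had 30.5 ± 4.04 CPM in PWK/PhJ and 36.4 ± 8.09 CPM in CAST/EiJ Drd1+ neurons but 0 to 0.506 CPM in the other 6 strains. Slc7a11, the cystine and glutamate exchanger, was low in WSB/EiJ astrocytes, at 75.8 ± 19.1 CPM against 349 CPM (log2 difference -2.17). Slc1a5, a neutral amino acid transporter of the same family as the glutamate transporters, was highest in CAST/EiJ oligodendrocytes, at 34.2 ± 16 CPM against 7.15 CPM (log2 difference 2.67).

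Genes with the most similar pattern were ranked by Pearson r of log2(CPM + 1) over the 17 clusters of at least 100 nuclei, as a description, since clusters share libraries and depth. The nearest gene to Gad1 was Gad2 (r = 0.97), followed for both by the transcription factor Dlx6 (0.91 and 0.93). Slc6a11 was the nearest gene to Slc1a2 (0.94), followed by Lgi4 and Gm35552, while Slc6a11 was nearest to Scg3 (0.94), ahead of Slc1a2 and Rorb. Slc1a3 was nearest to Abca1 (0.95), Fbxo2 and Apoe, and Slc6a13 to Slc22a6 (0.99), Col3a1 and Col13a1. Glul was nearest to the ribosomal protein genes Rpl37 (0.97), Rps12 and Rpl39, and Slc1a1 to Gm13052 (0.90), Lhfpl3 and 9530059O14Rik. Ranks over the 32 mice, after subtracting batch means, are a description too. Strain means were not subtracted, so genes that differ between the same strains correlate, and the nearest come from 13430 genes in Drd1+ neurons and 8206 in astrocytes. Gad1 in Drd1+ neurons was nearest to Rxrg (0.83), Dgkh and Zkscan6, and Gad2 to Arhgap6 (0.72), Gm15261 and Ppm1l. In astrocytes Slc1a2 was nearest to Slc7a2 (0.74), the genes after the nearest for Slc1a3 were Cyp2d22 (0.80) and Cntn4 (0.78), and Slc6a11 was nearest to Nisch (0.74), so no member was among the 3 nearest genes of another over the mice.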

How the data were processed

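Each sample of nuclei RNA was a 10x Multiome library of 8 pooled mice. Per the submitters' processing notes, bcl2fastq 2.20.0.422, Cell Ranger ARC 2.0.0 and the builds mm10 and GRCm38 were named. The authors deposited raw UMI counts per gene and barcode, and a table of barcodes whose filters (over 200 and under 7500 genes, under 15% mitochondrial reads), genotype-based mouse assignment, doublet removal and cluster names were used as given, per the deposited file description: 89339 barcodes came to 55672 nuclei, none marked as doublets. Reads of accessible chromatin were not analysed here.

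Counts were summed per mouse and cluster. Strain, contrast and interaction tests used edgeR 4.0.16 (R 4.3.3; quasi-likelihood, robust, TMM scaling, low-count filter by strain) with batch, or mouse for interactions, as a block, libraries of at least 10 nuclei, and an adjusted p threshold of 0.05. DESeq2 1.42.0 served as an alternative. Ratios used a pseudocount of 0.5 counts and 100000 permutations in Python 3.11.15 with scipy 1.17.1. Intervals are 95% Poisson and cover counting error only. Scripts were tested on simulated data, where the interaction tests between glial clusters recovered few changes. The batch block comes from the labels, since mice of a batch share a pool: same-batch mice of different strains had a median correlation of deviations of 0.129 in Drd1+ neurons and 0.055 in astrocytes, against -0.055 and -0.021 across batches.

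The genes that could be named were the 8 members, a list of 23 other cycle genes, and the 3 genes most like each member, and the last 2 lists are given only in part. The members and lists were chosen with earlier results of these data known. Macrophage contrasts and the interactions of Drd1+ neurons with oligodendrocytes and of astrocytes with macrophages were added after the data were seen. Alternatives were another scaling, no filter, no block, a minimum of 20 nuclei, another tool, and leaving out each batch.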

Additional observations from a re-analysis of the deposited data

Results flagged for a closer look

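In groups of 4 mice of a strain, the highest or lowest value stood apart from the other 3 in 6 of 128 groups of a gene and cluster, where chance gives about 6.4. In astrocytes Slc1a2 was lowest in WSB/EiJ batch 2, at 5937 CPM against 6297 to 6368 CPM in the other 3 mice, and Slc1a3 was lowest in CAST/EiJ batch 2, at 2584 against 2905 to 2934 CPM. In Drd2+ neurons of CAST/EiJ, Gad1 was highest in batch 2, at 102 against 84.3 to 86.4 CPM, and Slc1a1 was lowest in batch 3, at 91.3 against 101 to 102 CPM. Slc1a1 in PWK/PhJ oligodendrocytes was highest in batch 2, at 18.2 against 6.08 to 7.76 CPM, and Slc1a3 in 129S1/SvImJ macrophages was lowest in batch 1, at 3892 against 5674 to 5862 CPM.

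The interaction of strain and cell type within the same mice was called by edgeR for Slc1a3 (adjusted p = 0.00623), Slc1a1 (0.00972) and Gad1 (0.0247) between astrocytes and oligodendrocytes, calls that are uncertain, since all 3 were lost without the mouse block and without batch 1. Between Drd1+ neurons and oligodendrocytes it was called for Slc1a1 (edgeR adjusted p = 4.41e-10), Gad1 (1.49e-07) and Glul (0.0182), and between astrocytes and macrophages for Slc1a3 (edgeR adjusted p = 1.31e-34) and Glul (1.04e-07).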

How the results depend on the processing

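Over all alternatives, no direction reversed. The counts of calls below only compare settings, since the shares of all genes called under the alternatives are not given here. The strain term called 20 times a member in a cluster, and 12 to 17 times when 1 batch was left out, with ranges of 1 to 4 (from 5) in Drd1+ neurons, 2 to 5 (from 4) in astrocytes and 0 to 0 (from 1) in the second Drd1+ cluster, where DESeq2 also gave 0. In endothelium, where no member was called, having no filter gave 1 and DESeq2 gave 1. Without the replicate block the Drd1+ count fell to 3. The contrasts in the 4 planned clusters gave 35 calls, 22 without the replicate block and 25 to 31 with a batch left out. By cluster, the counts without the block were 5 of 10 in Drd1+ neurons and 6 of 11 in Drd2+ neurons. Leaving out a batch gave 5 to 8 in Drd1+ neurons, 5 to 9 (from 9) in oligodendrocytes and 2 to 8 (from 5) in astrocytes. The macrophage contrasts, added after the data were seen, are not among the 35. They gave 3 of 5 calls without the block and 3 to 6 with a batch left out. The planned interactions gave 3 calls, all between astrocytes and oligodendrocytes, 0 without the replicate block and 0 to 3 with a batch left out. The strain terms of Gad1 in both projection neuron clusters, Slc1a1 in Drd2+ neurons and oligodendrocytes, and Glul and Slc1a3 in oligodendrocytes, astrocytes and macrophages passed under every alternative. At a minimum of 20 nuclei the endothelium and Polydendrocyte/Oligodendrocyte clusters gave no value, and DESeq2 was not run for interactions. Slc6a13, with low counts, was tested in no cluster. Libraries of the rarer cell types were small, and the part of their size in the few calls there was not tested. The causes of the changes between alternatives were not tested.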
